A study of Oryctolagus cuniculus with 27 samples.

Results

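Aortic valve cusps taken after 7 weeks of a calcifying diet were compared with cusps taken after 4 weeks of the same diet, gene by gene, in 4 bulk RNA sequencing libraries per time (8 of the 27 libraries of the study). The libraries were chosen by the tissue and duration in their titles, and all genes of the valve table were used, including those named only by a LOC number (a gene identifier without a symbol). All animals were wild-type male New Zealand rabbits fed chow enriched to 1% in cholesterol together with vitamin D2 (ergocalciferol, 3500 IU per kg per day) for 7 weeks in 1 group and 4 weeks in the other, and 1 cusp was taken per animal. The animals' ages are not given, so time on the diet and age cannot be told apart. Valves after 2 weeks of diet (n = 4) and valves of chow-fed rabbits (n = 4) shared the fit and are quoted for their levels only. The titles of the chow valves name 7 weeks for 3 and 2 weeks for 1.

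The aortic valve cusp is a thin sheet of matrix with interstitial cells inside and endothelium on both faces. In calcific valve disease lipoproteins lodge in the cusp, monocytes enter and become foam cells, the elastin and collagen layers are remodelled, and some interstitial cells take on myofibroblast or bone-like programmes. Mineral growth is opposed by inhibitors such as matrix Gla protein and pyrophosphate. Cholesterol with vitamin D is given to rabbits because together they bring on these changes within weeks.

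Levels are CPM, counts scaled to a common library total, and fold changes are log2, 7 minus 4 weeks, ± SE of the edgeR fit. Library totals were 8451909 to 16496844 counts at 7 weeks and 10185814 to 19422419 counts at 4 weeks. The 6 interstitial markers DCN, LUM, COL1A1, COL3A1, VIM and TBX20 were present in all 8 libraries, with summed levels of 6606 to 18414 CPM at 7 weeks and 14615 to 24007 CPM at 4 weeks. Replicate 2 at 7 weeks had the smallest total, the lowest interstitial sum and the most heart muscle RNA. Its 18 heart muscle genes took 5.22% of counts. The groups did not separate by overall profile. The median Spearman correlation over genes was 0.954 within the 7-week group, 0.957 within the 4-week group and 0.954 between them.

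The 8 libraries differed in RNA of other sources. Heart muscle genes took 2.95% ± 1.90 of counts at 7 weeks and 1.60% ± 1.19 at 4 weeks (SD, n = 4 each; exact permutation p = 0.314, two-sided). They took 0.433% ± 0.244 after 2 weeks of diet and 2.60% ± 1.45 on chow (SD, n = 4 each). These shares are over counts from which the authors had left out genes named as myocardial, so they do not measure all heart muscle RNA. The 18S ribosomal RNA gene RN18S took 0.510, 2.09, 2.21 and 1.51% of counts in 7-week replicates 1 to 4, against 0.386, 0.298, 0.282 and 0.516% at 4 weeks. Replicate 1 at 7 weeks lay within the 4-week range and the other 3 above it. RN18S averaged 1.58% ± 0.776 at 7 weeks and 0.370% ± 0.107 at 4 weeks (SD, n = 4 each; exact permutation p = 0.0571, two-sided, and 0.114 after Benjamini-Hochberg adjustment over the 4 shares tested). Its mean was 1.65% ± 0.259 after 2 weeks of diet and 1.17% ± 0.765 on chow (SD, n = 4 each). The 4-week group thus had the lowest mean of the valve groups. Red cell and platelet genes took 0.723% ± 0.28 at 7 weeks and 0.260% ± 0.192 at 4 weeks (SD, n = 4 each; exact permutation p = 0.0571, adjusted 0.114). Atrial muscle genes took 0.207% ± 0.207 at 7 weeks and 0.255% ± 0.360 at 4 weeks (SD, n = 4 each; exact permutation p = 0.886). The smallest p that 4 against 4 allows is 0.0286. The numbers in the library names were 1 to 4 for the 7-week group and 21, 36, 37 and 38 for the 4-week group. They were 27 to 30 for 2-week valves and 31 to 34 for chow valves, and no aorta or myocardium library was numbered 1 to 4. Whether the numbers mark separate sequencing runs is not given, and if they do, run and duration cannot be told apart.

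Between 4 and 7 weeks, 17 of 15627 genes tested passed an adjusted p of 0.05 (edgeR quasi-likelihood test with Benjamini-Hochberg adjustment), which is 0.109% of genes. All 17 were higher at 7 weeks and all 17 were named by a LOC number. The count of genes lower at 7 weeks was 0 by edgeR, with 890 (5.7%) lower and 990 (6.34%) higher at an unadjusted p under 0.05. DESeq2 on the same libraries called 127 higher and 68 lower. Among fits that leave out 1 library, the edgeR count was 54 without 7-week replicate 1, 9 without 7-week replicate 3, and 5, 10 and 4 without 4-week replicates 1, 2 and 4. With the RN18S share as a covariate it was 0, with 869 genes at an unadjusted p under 0.05.

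LOC-numbered genes as a class had higher fold changes than genes with a symbol. Calls by edgeR were 17 of 3101 LOC-numbered genes (0.548%) and 0 of 12526 genes with a symbol. The median log2 fold change was 0.14 over LOC-numbered genes, -0.04 over genes with a symbol and -0.02 over all genes tested. At an unadjusted p under 0.05, 11.3% of LOC-numbered genes were higher and 3.35% lower, against 5.12% higher and 6.27% lower among genes with a symbol. RSEM, which divides reads that match several genes between them, gives counts that are not whole where it does so. Non-whole counts in over 8 of the 16 valve libraries were found for 15 of the 17 called genes and for 16.4% of all genes tested. By class, they were found for 1533 of 3101 LOC-numbered genes and for 1035 of 12526 genes with a symbol. Some reads of the 15 called genes were therefore divided with other genes. The same holds for some genes with a symbol described below, among them MX1, MYH7, MYH11 and LDHA (non-whole in all 16) and SPP1 (in 13). How much of the level of any of these genes rests on this was not measured. Of the 17, 13 are in the RefSeq gene table, 11 as protein coding and 2, LOC100339459 and LOC100350232, as pseudogenes.

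**Figure D1:**
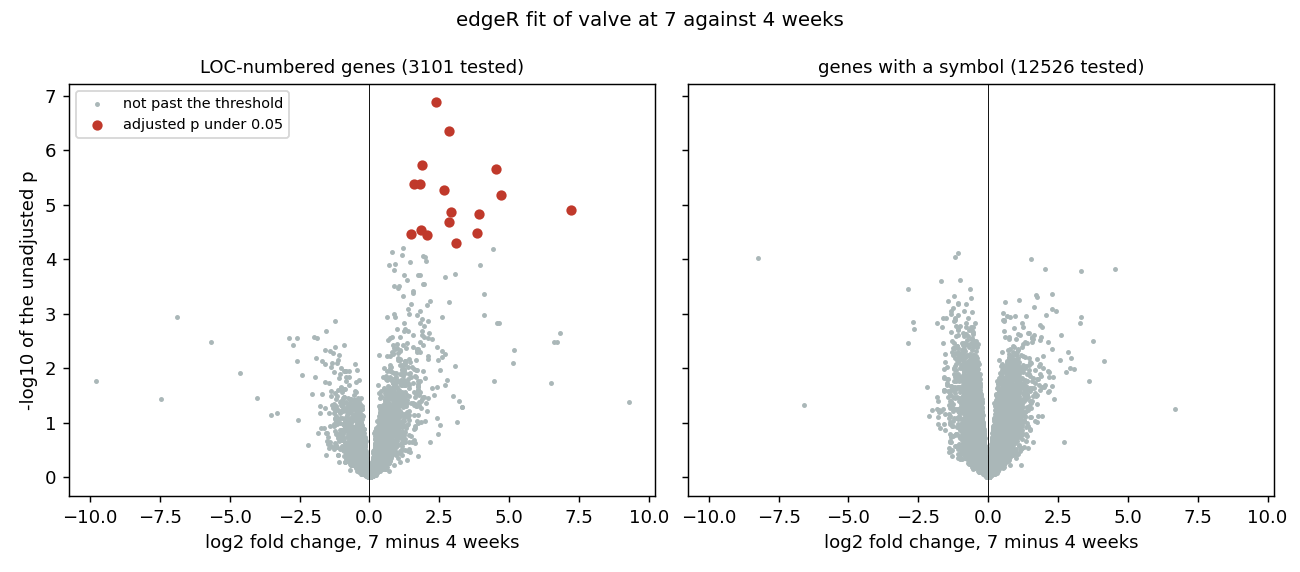
Each point is a gene, with its log2 fold change (7 minus 4 weeks) on the x axis and -log10 of the unadjusted edgeR p on the y axis, LOC-numbered genes on the left and genes with a symbol on the right. The 17 genes past the threshold, in red, all lie to the right of 0 in the left panel.

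The called genes fall into 2 patterns. In 14 of them each of the 4 valves at 7 weeks lay above every one of the other 23 libraries of the study, which were valves at 4 and 2 weeks and on chow, aorta and myocardium. The numbers in the library names also set these 4 valves apart from the other 23. If they mark runs, run cannot be told apart from duration in this comparison. Valve totals leave out the genes named as myocardial, so CPM of aorta and myocardium are on another scale. LOC100353302, annotated as protein coding, had 23.2, 28, 25.2 and 22.7 CPM at 7 weeks, against 4.84, 7.07, 5.52 and 4.16 CPM at 4 weeks. The 7-week libraries lay close to each other and the groups did not overlap. It rose 5.24-fold (2.39 ± 0.26, adjusted p = 0.00207) and averaged 5.94 ± 0.464 CPM after 2 weeks and 5.97 ± 2.80 CPM on chow (SD, n = 4 each). It passed in each of the 8 fits that leave out 1 library.

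LOC100339471, also annotated as protein coding, had 11.7, 12.5, 12.9 and 9.64 CPM at 7 weeks, against 1.49, 2.65, 1.78 and 1.46 CPM at 4 weeks. The groups lay far apart, with a rise of 7.22-fold (2.85 ± 0.34, adjusted p = 0.00347). LOC100357892 was the most abundant of the 17, with 171, 328, 208 and 170.5 CPM at 7 weeks and 56.9, 76.1, 54.5 and 55.7 CPM at 4 weeks. The highest 7-week value was that of replicate 2, and the groups did not overlap (4.21-fold, 2.07 ± 0.36, adjusted p = 0.0344). The call was lost without any 1 of 7-week replicates 2, 3 and 4 or any 1 of the 4-week replicates.

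LOC100009286 carries the symbol EEF1B2 in the RefSeq gene table, an exchange factor of translation elongation. It had 12.3, 12.1, 11.46 and 10.002 CPM at 7 weeks and 2.88, 5.11, 3.86 and 2.76 CPM at 4 weeks (3.56-fold, 1.83 ± 0.31, adjusted p = 0.0344). The 7-week values were nearly equal and all above the 4-week values. A separate row named EEF1B2 in the same table had 479, 531, 452 and 392.3 CPM at 7 weeks and 343, 435, 412 and 289 CPM at 4 weeks, which overlap (0.51 ± 0.19, adjusted p = 0.356). The deposited table does not say how these 2 rows are related. LOC100009286 lost its call without any 1 library other than 7-week replicate 1.

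The other members of this pattern with a mean of at least 5 CPM over the 8 libraries were LOC100346213, LOC100339459, LOC100353606, LOC100341094 and LOC100350232. They rose by 1.5 to 2.68 on the log2 scale, with adjusted p of 0.00869 to 0.0344 by edgeR. LOC100346213 passed without any 1 library. LOC100339459, LOC100353606 and LOC100341094 failed without 4-week replicate 1 or 4, and LOC100350232 without any 1 library other than 7-week replicate 1 and 4-week replicate 2.

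At lower levels, named because they complete the 17 and after their values were seen, were LOC100340199, LOC100342677, LOC100349729, LOC100345060 and LOC100352318. The largest fold among them was that of LOC100340199, with 3.85, 3.90, 5.37 and 3.46 CPM at 7 weeks and 0, 0.393, 0.237 and 0.208 CPM at 4 weeks (4.53 ± 0.62, adjusted p = 0.00869). LOC100342677 had 3.98, 7.10, 5.43 and 3.76 CPM at 7 weeks and 0.669, 1.18, 0.890 and 0.416 CPM at 4 weeks, and its counts were whole in all but 1 library. It rose by 2.91 ± 0.47 (adjusted p = 0.0208). Its call was lost without 7-week replicate 2 or 3 or 4-week replicate 1, 3 or 4, and that of LOC100340199 without 4-week replicate 4. LOC100349729, LOC100345060 and LOC100352318 each lost theirs in 4 or more of the 8 fits that leave out 1 library.

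Summed over the 14 genes, the level was 384 ± 97.3 CPM at 7 weeks and 107 ± 19.3 CPM at 4 weeks (SD, n = 4 each). It was 95.6 ± 36.3 CPM on chow and 96.1 ± 16.4 CPM after 2 weeks (SD, n = 4 each). Myocardium of 3 of the same 7-week animals, matched to the valves through the numbers in their names, had 43.2 to 50.3 CPM, against 46.6 to 108 CPM in chow-fed rabbits' myocardium. Myocardium CPM are over their own library totals, and valve totals leave out the genes named as myocardial, so the scales differ. That the 7-week valves lay above every other library, the same animals' heart muscle included, follows from how these 14 were picked and is a description only. Across all genes tested, 98 (0.627%) had all 4 libraries at 7 weeks above the other 12 valve libraries. They comprised 61 LOC-numbered genes (1.97% of that class) and 37 with a symbol (0.295%). All 4 lay below the other 12 for 75 genes (0.48%), 7 of them LOC-numbered (0.226% of that class) and 68 with a symbol (0.543%).

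**Figure D2:**
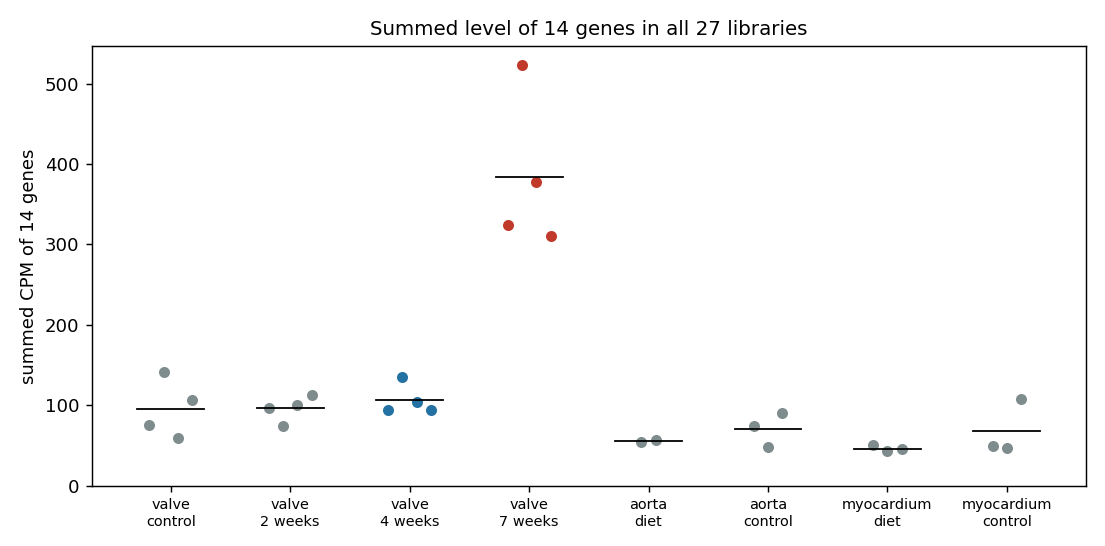
Each point is a library and the y axis is the summed CPM of the 14 genes, with a bar at the group mean. The 4 valves at 7 weeks lie between 310.1 and 523 CPM and the 23 other libraries between 43.2 and 142 CPM, a separation that the choice of the 14 genes fixed. Valve totals leave out the genes named as myocardial, so CPM of aorta and myocardium are on another scale.

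The other 3 called genes were split within the 7-week group, with replicates 3 and 4 high and replicates 1 and 2 low. LOC100341160, named LYZ in the RefSeq gene table, encodes lysozyme, an antibacterial enzyme of phagocytes and secretions. It had 2.68, 2.37, 36.5 and 28.5 CPM at 7 weeks, against 0, 0, 0.356 and 0.104 CPM at 4 weeks. All 7-week values lay above all 4-week values, and replicates 3 and 4 were over 10 times the other 2. Its log2 fold change was 7.19 ± 1.14 (adjusted p = 0.0208), and it was at 0 to 0.448 CPM in all 8 valves after 2 weeks or on chow. The macrophage genes CD68 and TYROBP showed no such split. CD68 had 63.5, 72.4, 70.9 and 99.6 CPM at 7 weeks and 70.7, 83.7, 108 and 23.7 CPM at 4 weeks.

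LOC100340903, which is not in the RefSeq gene table, had 2.22, 3.08, 28 and 22.4 CPM at 7 weeks, against 1.13, 1.57, 0.653 and 0.884 CPM at 4 weeks (3.85 ± 0.67, adjusted p = 0.0344). LOC100341783, annotated as protein coding, had 15.5, 23.5, 159 and 137 CPM at 7 weeks, against 4.89, 3.53, 2.85 and 2.65 CPM at 4 weeks (4.70 ± 0.71, adjusted p = 0.0129). The 4-week group was the low one for this gene. Chow valves had 95.8 to 172 CPM and 2-week valves 35.7 to 173 CPM, so 7-week replicates 3 and 4 lay within the range of both and replicates 1 and 2 below it. LOC100341160 and LOC100340903 lost their call without 7-week replicate 3 or 4. LOC100341783 and LOC100340903 lost it without any 1 of the 4-week replicates, and LOC100341160 without 4-week replicate 1, 2 or 4.

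Heart muscle of 3 of these animals, 1 from the high pair and 2 from the low pair, was also measured. Myocardium of 7-week replicate 4 had 37.8 CPM of LOC100341783, 5.43 CPM of LOC100341160 and 6.75 CPM of LOC100340903. For LOC100341783 the myocardium of replicates 1 and 2 had 0.282 and 0.685 CPM, for LOC100341160 it had 0 in both, and for LOC100340903 it had 1.20 and 1.49 CPM. Replicate 4 was the highest of the 3 for each gene. For LOC100341783 it still lay below all 3 myocardium libraries of chow-fed rabbits, which had 45.3, 78.6 and 157 CPM. Myocardium of replicate 3 was not analysed here, and with 3 animals no test was made.

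**Figure D3:**
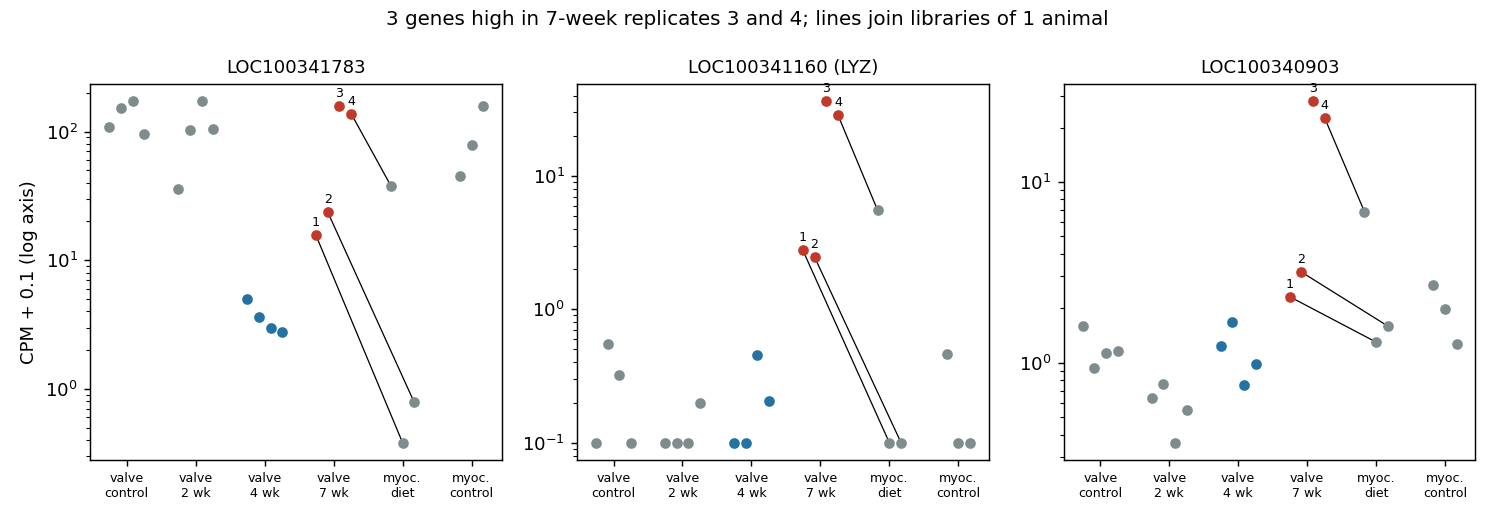
The y axis is CPM + 0.1 on a log scale, 1 point per library, with valve groups and myocardium groups on the x axis and 7-week replicate numbers above the points. Lines join valve and myocardium of 1 animal, and for each of the 3 genes replicate 4 lies above replicates 1 and 2 in both tissues.

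No gene with a symbol passed by edgeR, so the genes below are described by their values, with adjusted p of edgeR. DESeq2 called 44 genes with a symbol higher and 59 lower. Among those named below, its calls included C1QTNF9, CLU, KL, SOST, MMP13, HBA and NPPB. Genes chosen for the smallest p on the lower side, without overlap between groups and averaging 5 CPM or more, were ADAMTS8, FBLN5, CCDC8, OSR1, SMAD7, IFIT2, NHSL1, PDZD2, L3MBTL1, LGR6, PRSS35 and ALDH18A1. Over all genes, 434 (2.78%) had all 4 libraries at 7 weeks below all 4 at 4 weeks and 214 (1.37%) had the reverse. ADAMTS8, a secreted metalloprotease, had 17.6, 10.9, 16.4 and 10.7 CPM at 7 weeks, against 27.4, 29.1, 35.6 and 35 CPM at 4 weeks. It stood at -1.06 ± 0.20 (adjusted p = 0.0563). Its level was 43.3 ± 3.23 CPM after 2 weeks and 27.2 ± 10.6 CPM on chow (SD, n = 4 each).

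FBLN5 encodes fibulin-5, which is needed to assemble elastic fibres. It had 363, 193, 312 and 236 CPM at 7 weeks, against 469, 679.8, 846 and 765 CPM at 4 weeks. The groups did not overlap, and it stood at -1.19 ± 0.23 (adjusted p = 0.0571). OSR1, a transcription factor of embryonic mesenchyme, had 49.9, 17.3, 34.1 and 14.4 CPM at 7 weeks, against 56.6, 79.9, 109.6 and 146 CPM at 4 weeks, and stood at -1.67 ± 0.35 (adjusted p = 0.088). ADAMTS8 and FBLN5 passed without 7-week replicate 1 (adjusted p = 0.0499 for both), as did OSR1 and PRSS35. DESeq2 called all 12.

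SMAD7, an inhibitor of TGF-beta signalling, had 29.4, 17.3, 28 and 34.6 CPM at 7 weeks and 37.4, 45.3, 56.2 and 47.6 CPM at 4 weeks (-0.63 ± 0.14, adjusted p = 0.109; adjusted p = 0.0377 without 7-week replicate 4). LGR6, a receptor for R-spondins, which strengthen WNT signals, stood at -0.79 ± 0.19 (adjusted p = 0.151). ALDH18A1, an enzyme of proline synthesis, stood at -0.59 ± 0.14 (adjusted p = 0.182). The remaining 5, CCDC8, NHSL1, PDZD2, L3MBTL1 and PRSS35, had adjusted p of 0.088 to 0.177 and log2 fold changes of -1.09 to -0.61.

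**Figure D4:**
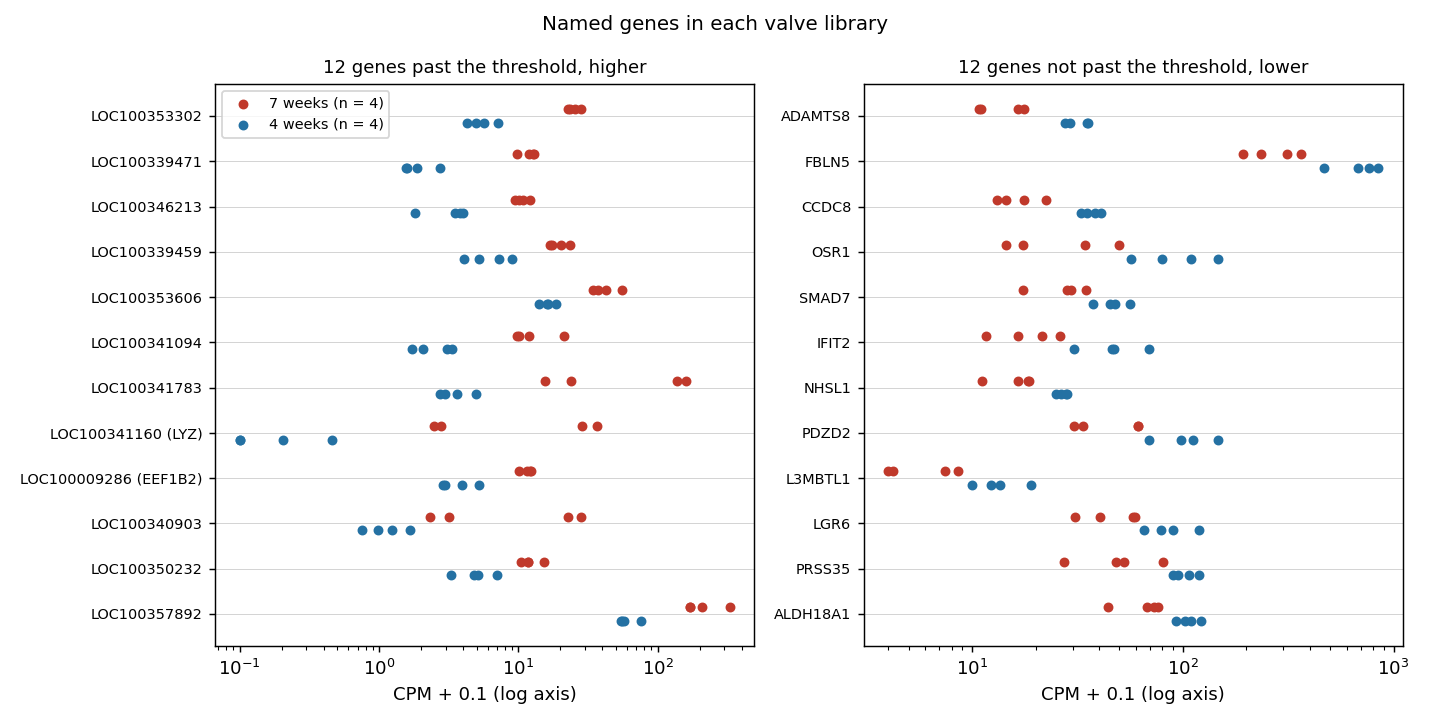
Each point is a valve library and the x axis is CPM + 0.1 on a log scale, with 7 weeks in red above 4 weeks in blue for each gene. On the left are the 12 called genes with a mean of at least 5 CPM, among which the 3 split genes spread widest at 7 weeks. On the right are 12 genes of smallest p on the lower side, none past the threshold by edgeR.

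TMEM229B, a predicted membrane protein, was named after its values were seen, for being at 0 in a whole group. It had 0 counts in all 4 libraries at 7 weeks, against 3.55, 3.04, 3.15 and 1.04 CPM at 4 weeks. With the floor of 3 counts over the group, which allows up to 0.0542 CPM at 7 weeks, it was at least 48.6-fold lower (adjusted p = 0.0571). The floor covers counting error only, as do all statements on depth. The 8 other valves had 0 to 2.00 CPM.

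Genes with a symbol that were higher at 7 weeks, also picked after their values were seen for the smallest p, began with C1QTNF9, a secreted protein related to complement C1q and adiponectin. It had 19.6, 19.2, 16.8 and 28.4 CPM at 7 weeks and 9.22, 12.1, 4.57 and 6.45 CPM at 4 weeks (1.54 ± 0.30, adjusted p = 0.0576; adjusted p = 0.0496 without 7-week replicate 1). CLU, clusterin, an extracellular chaperone, had 1136, 1071, 1259.8 and 1276 CPM at 7 weeks and 913, 581, 619 and 422 CPM at 4 weeks (1.05 ± 0.29, adjusted p = 0.242). In both genes the groups did not overlap, which was a condition of the pick, as was a mean of at least 5 CPM.

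Gene lists are described by counts and medians, beside the median of -0.02 over all genes tested. In the 40 lists with members tested, 0 genes were called by edgeR over all genes. The mitochondrially encoded genes were not analysed here. Because the samples are whole cusps, a lower level of a cell type's genes from fewer such cells and from less RNA per cell cannot be told apart.

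Foam cell genes had medians from 0 upward and no calls. Of 18 macrophage genes 0 reached an unadjusted p of 0.05, against 6.34% of all genes higher and 5.7% lower, and their median was 0.00. Leaving out 4-week replicate 4 or 3 gave -0.26 and 0.36. The 4 defining macrophage markers CD68, CSF1R, TYROBP and CD14 summed to 344 to 456 CPM at 7 weeks and 123 to 583 CPM at 4 weeks, with the wider spread at 4 weeks. TREM2, a lipid-sensing receptor of foam cells, had 53.3, 70.5, 58.1 and 81.9 CPM at 7 weeks and 78.0, 60.7, 104 and 21 CPM at 4 weeks (0.20 ± 0.50). The 14 genes of lipid-laden macrophages had a median of 0.51 (0.18 without 7-week replicate 4), with 2 higher at an unadjusted p under 0.05 (6.34% of all genes). APOE, the apolipoprotein that foam cells secrete, had 1025, 748, 718 and 1164 CPM at 7 weeks and 338, 635, 447 and 302 CPM at 4 weeks (1.25 ± 0.39, adjusted p = 0.31), without overlap.

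VCAM1, which holds monocytes to endothelium, stood at 0.31 ± 0.33 (adjusted p = 0.70), IL1B at 0.49 ± 0.70 (adjusted p = 0.783) and the gelatinase MMP9 at -1.16 ± 0.78 (adjusted p = 0.531). MMP9 had its highest value, 147 CPM, in 4-week replicate 3, and without that library it stood at 0.53. Neutrophil genes had a median of 1.37 over 5 tested. It was 0.06 without 7-week replicate 2, which had 14.7 CPM of S100A8, a calprotectin subunit. CXCR2, a neutrophil chemokine receptor, was at 1.44 to 2.48 CPM at 7 weeks and 0.624 to 1.08 CPM at 4 weeks (1.5 ± 0.49, adjusted p = 0.316). T and B lymphocyte genes had a median of -0.04 over 7 tested, which was 0.41 without 4-week replicate 2, -0.31 without 4-week replicate 4 and 0.47 with the RN18S covariate.

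Interferon-induced genes had the lowest median of any list. Of 10 tested, 5 were lower at an unadjusted p under 0.05 (5.7% of all genes), 4 had groups that did not overlap with 7 weeks lower (2.78% of all genes), and the median was -0.94. IFIT2, an interferon-induced RNA-binding antiviral protein, had 21.3, 16.4, 26 and 11.52 CPM at 7 weeks, against 46.2, 68.7, 30.3 and 47.0 CPM at 4 weeks (-1.21 ± 0.27, adjusted p = 0.127). IFIT3 had 27.9, 18.0, 23.1 and 18.7 CPM at 7 weeks and 92.4, 113, 39.2 and 35.8 CPM at 4 weeks (-1.54 ± 0.48, adjusted p = 0.306). MX1, an antiviral GTPase, had 135, 105, 135 and 67.0 CPM at 7 weeks and 293, 464, 162 and 158 CPM at 4 weeks (-1.13 ± 0.39, adjusted p = 0.329). Replicates 1 and 2 at 4 weeks were the high ones for IFIT3 and MX1.

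CXCL10, an interferon-induced chemokine for T cells, repeated this order with 9.01, 7.34, 6.83 and 8.18 CPM at 7 weeks and 26.3, 54.0, 13.2 and 10.6 CPM at 4 weeks (-1.56 ± 0.54, adjusted p = 0.327). The median of the interferon list was -0.54 without 4-week replicate 2 and -0.39 with the RN18S share as a covariate. Valves on chow had 19.7 to 90.6 CPM of IFIT3 and 2-week valves 11.2 to 31.3 CPM, and both ranges overlapped that of the 7-week valves.

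Cells answer plentiful sterol by turning down cholesterol synthesis genes and turning up LXR efflux targets, as background. Of 17 cholesterol synthesis genes 15 had negative values, with a median of -0.40 and 2 lower at an unadjusted p under 0.05 (5.7% of all genes). The median was -0.10 without 4-week replicate 4. The exporter ABCA1 stood at 0.25 ± 0.42 (adjusted p = 0.819), and the 10 LXR target and efflux genes had a median of 0.28.

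Genes of mineralisation had differences of both signs. Of 22 osteogenic and chondrogenic genes, 2 were higher (6.34% of all genes) and 1 lower (5.7% of all genes) at an unadjusted p under 0.05. Their median was 0.20 (0.05 without 4-week replicate 1). TNFSF11, RANK ligand, which drives osteoclast formation, had 4.96, 0.237, 1.66 and 1.64 CPM at 7 weeks, against 0.0515, 0.687, 0.0594 and 0.208 CPM at 4 weeks (3.29 ± 0.85, adjusted p = 0.198). The groups overlapped through 7-week replicate 2 and 4-week replicate 2. Its soluble decoy, TNFRSF11B or osteoprotegerin, stood at -0.27 ± 0.28 (adjusted p = 0.685). BMP2, a bone morphogen, had 12.7, 7.69, 9.28 and 3.82 CPM at 7 weeks and 5.15, 5.50, 5.82 and 6.66 CPM at 4 weeks (0.66 ± 0.28, adjusted p = 0.393).

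BGLAP, osteocalcin, had 1.37, 1.3, 1.52 and 0.909 CPM at 7 weeks and 2.32, 2.85, 2.73 and 6.03 CPM at 4 weeks, without overlap (-1.33 ± 0.52, adjusted p = 0.37). The osteoblast transcription factor RUNX2 stood at 0.78 ± 0.40 (adjusted p = 0.438) and the cartilage factor SOX9 at -0.59 ± 0.41 (adjusted p = 0.538). ALPL, the phosphatase that removes pyrophosphate, had 13.1 to 14.4 CPM at 7 weeks and 5.82 to 26.4 CPM at 4 weeks (0.20 ± 0.37). Its mean was 13.7 CPM at both times. SPP1, osteopontin, had 744, 324, 704 and 593 CPM at 7 weeks and 295, 315, 778 and 197 CPM at 4 weeks (0.71 ± 0.38, adjusted p = 0.445).

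The 15 mineralisation inhibitors and phosphate genes had a median of 0.00. It was -0.35 without 7-week replicate 3. KL, klotho, the co-receptor of the phosphate hormone FGF23, had 0.718, 0.355, 0.729 and 0.485 CPM at 7 weeks, against 1.85, 1.28, 3.92 and 8.84 CPM at 4 weeks (-2.67 ± 0.69, adjusted p = 0.198). Those groups did not overlap, and 2-week valves had 7.30 to 23.7 CPM and chow valves 2.21 to 12.2 CPM. SOST, sclerostin, a WNT inhibitor of bone, had 7.18, 5.44, 10.01 and 2.61 CPM at 7 weeks and 8.44, 16.8, 22 and 39.8 CPM at 4 weeks (-1.66 ± 0.44, adjusted p = 0.216). SOST also lay below the 22.2 to 31.7 CPM of chow valves in all 4 libraries at 7 weeks. The pyrophosphate exporter gene ANKH stood at 0.47 ± 0.21 (adjusted p = 0.401) and MGP, matrix Gla protein, at 0.29 ± 0.30 (adjusted p = 0.693).

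Elastic fibre genes stood lower at 7 weeks. Of 15 tested, 14 had negative values, 5 were lower at an unadjusted p under 0.05 (5.7% of all genes), 3 had no overlap with 7 weeks lower (2.78% of all genes), and the median was -0.49, or -0.32 without 7-week replicate 2. Beside FBLN5, FBLN1 had 1014, 1098, 1464 and 1196 CPM at 7 weeks and 1971, 3014, 2262 and 1491 CPM at 4 weeks (-0.70 ± 0.27, adjusted p = 0.37). FBN2, a microfibril fibrillin, had 4.24, 2.25, 2.72 and 2.12 CPM at 7 weeks and 7.47, 8.34, 6.41 and 5.72 CPM at 4 weeks (-1.17 ± 0.39, adjusted p = 0.324). For FBN2, FBLN1 and FBLN5 all 4 libraries at 7 weeks were below all 4 at 4 weeks. LOX, which crosslinks elastin and collagen, had 185, 48.7, 83.2 and 69.8 CPM at 7 weeks and 139, 211, 282 and 192 CPM at 4 weeks (-1.0 ± 0.34, adjusted p = 0.326), with 7-week replicate 1 inside the 4-week range. ELN, elastin, stood at -0.55 ± 0.38 (adjusted p = 0.541).

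Smooth muscle and myofibroblast genes stood lower as well. Of 12 tested, 6 were lower (5.7% of all genes) and 1 higher (6.34% of all genes) at an unadjusted p under 0.05, 11 had negative values, and the median was -0.78. MYH11, smooth muscle myosin, had 5487, 2064, 4655 and 1881 CPM at 7 weeks, against 4656, 4869.9, 7650.1 and 11031 CPM at 4 weeks (-0.91 ± 0.37, adjusted p = 0.38). ACTA2, smooth muscle actin, had 4398, 3284, 5179 and 2296 CPM at 7 weeks and 4389.7, 6125, 9036 and 9211 CPM at 4 weeks (-0.78 ± 0.31, adjusted p = 0.38). Both overlapped between groups. DES, desmin, which heart muscle also makes, was the higher member (1.28 ± 0.56, adjusted p = 0.397), and heart muscle genes took 2.95% of counts at 7 weeks and 1.60% at 4 weeks. The part of heart muscle RNA in it was not tested.

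Other matrix lists had medians close to 0. The 15 collagens had a median of -0.13 with 0 at an unadjusted p under 0.05 (6.34% of all genes higher and 5.7% lower). COL1A1 stood at -0.43 ± 0.36 (adjusted p = 0.62). OGN, a small leucine-rich proteoglycan, stood at -1.04 ± 0.32 (adjusted p = 0.306). Of 19 proteoglycan and matricellular genes, 4 were lower at an unadjusted p under 0.05 (5.7% of all genes). THBS2, thrombospondin 2, was lower without overlap, at 35.9 to 82.0 CPM at 7 weeks and 83.6 to 149.9 CPM at 4 weeks (-0.57 ± 0.25, adjusted p = 0.395). Among proteases, the collagenase MMP13 had 16.6, 0.947, 10.2 and 1.64 CPM at 7 weeks, against 0.206, 1.28, 1.54 and 0.156 CPM at 4 weeks (3.32 ± 0.83, adjusted p = 0.188). Replicates 1 and 3 at 7 weeks were the high ones, and the groups overlapped through replicate 2. TIMP1, an inhibitor of such proteases, had 841 to 1203 CPM at 7 weeks and 303 to 801 CPM at 4 weeks, without overlap (0.72 ± 0.33, adjusted p = 0.406).

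Endothelial genes stood higher at 7 weeks. Of 15 tested, 7 were higher at an unadjusted p under 0.05 (6.34% of all genes), 13 had positive values, and the median was 0.61. VWF, von Willebrand factor, had 360.4, 187, 142 and 295 CPM at 7 weeks, against 139, 177, 92.5 and 65.4 CPM at 4 weeks (1.19 ± 0.37, adjusted p = 0.308). PECAM1, an endothelial junction protein, had 201, 96.8, 93.7 and 145 CPM at 7 weeks and 76.3, 107, 80.0 and 52.3 CPM at 4 weeks (0.90 ± 0.29, adjusted p = 0.316). Both overlapped between groups, and FLT1, a VEGF receptor, did not, with 30.5 to 56.3 CPM at 7 weeks and 19.6 to 29.5 CPM at 4 weeks (0.89 ± 0.29, adjusted p = 0.321).

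Heart muscle, mitochondrial and red cell lists each had a positive median. Heart muscle and red cell genes ranked 7-week replicates 1 and 2 in opposite order. Replicate 1 had the most red cell RNA (1.07% of counts) and the least heart muscle RNA (1.11%), and replicate 2 the least red cell RNA (0.397%) and the most heart muscle RNA (5.22%). Replicate 4 was above the 7-week mean in both, at 3.79% heart muscle and 0.776% red cell RNA. The 18 ventricular and shared heart muscle genes had a median of 1.09, 16 of them positive, and NPPB, the natriuretic peptide of strained heart muscle, had 386, 3068, 289 and 1264 CPM at 7 weeks and 252, 119, 16.7 and 62.7 CPM at 4 weeks (3.77 ± 1.08, adjusted p = 0.258). MYH7, the slow cardiac myosin, had 3921, 13699.5, 715 and 11326 CPM at 7 weeks and 708, 2891, 555 and 2964 CPM at 4 weeks (2.34 ± 0.85, adjusted p = 0.355). Replicates 2 and 4 at 7 weeks were the high ones. All 32 nuclear genes of oxidative phosphorylation had positive values, with a median of 0.70 and 14 at an unadjusted p under 0.05 (6.34% of all genes). With the mean log2 level of the heart muscle list as a covariate that median was 0.14, and without 7-week replicate 2 it was 0.34, against 0.58 for the heart muscle list. NPPA, an atrial natriuretic peptide, stood at 0.08 ± 1.16 (adjusted p = 0.982).

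The 29 cytosolic ribosomal protein genes were all positive too, with a median of 0.40 and 0.15 without 7-week replicate 2. Red cell genes had a median of 1.57, and 5 of 6 tested were higher at an unadjusted p under 0.05 (6.34% of all genes). HBA, alpha globin, had 5548, 2168, 3471 and 4212 CPM at 7 weeks and 819, 2744, 676 and 1156 CPM at 4 weeks (1.64 ± 0.45, adjusted p = 0.243). Per the labels, blood was washed off the cusps in heparinised saline. With the heart muscle covariate 14 of the 17 called genes passed. The part of blood in the calls was not tested.

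Signalling and stress lists lay close to 0. TGF-beta response genes had a median of -0.18, NOTCH and WNT genes -0.05, unfolded protein and stress genes -0.08, heat shock genes 0.02 and NRF2 targets 0.18. SFRP2, a secreted WNT antagonist, was lower without overlap, at 27.2 to 38.1 CPM at 7 weeks and 45.6 to 146 CPM at 4 weeks (-1.04 ± 0.33, adjusted p = 0.316). HMOX1, heme oxygenase, stood at 0.32 ± 0.36 (adjusted p = 0.72). Of 32 cell cycle genes, 27 had negative values and the median was -0.17. At an unadjusted p under 0.05, 0 were higher (6.34% of all genes) and 0 lower (5.7% of all genes). The proliferation marker MKI67 was too low to be tested. Of 14 clock genes 4 were lower at an unadjusted p under 0.05 (5.7% of all genes). They were led by NR1D1, the clock repressor REV-ERB alpha, with 43.4, 20.7, 64.0 and 68.3 CPM at 7 weeks and 56.5, 101, 95.1 and 163 CPM at 4 weeks (-0.97 ± 0.32, adjusted p = 0.321). The hour of sacrifice is not given. LDHA, lactate dehydrogenase, stood at 3.07 ± 1.05 (adjusted p = 0.327) through 1 library, 7-week replicate 1, with 162 CPM against 3.70 to 6.96 CPM in the other 3 and 2.44 to 9.79 CPM at 4 weeks. Without that library it stood at 0.18. LDHA was also high in replicates 3 and 4 after 2 weeks of diet, at 64.2 and 76.2 CPM. Replicates 1 and 2 of that group had 12.5 and 9.83 CPM, and chow valves 0.975 to 2.89 CPM.

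**Figure D5:**
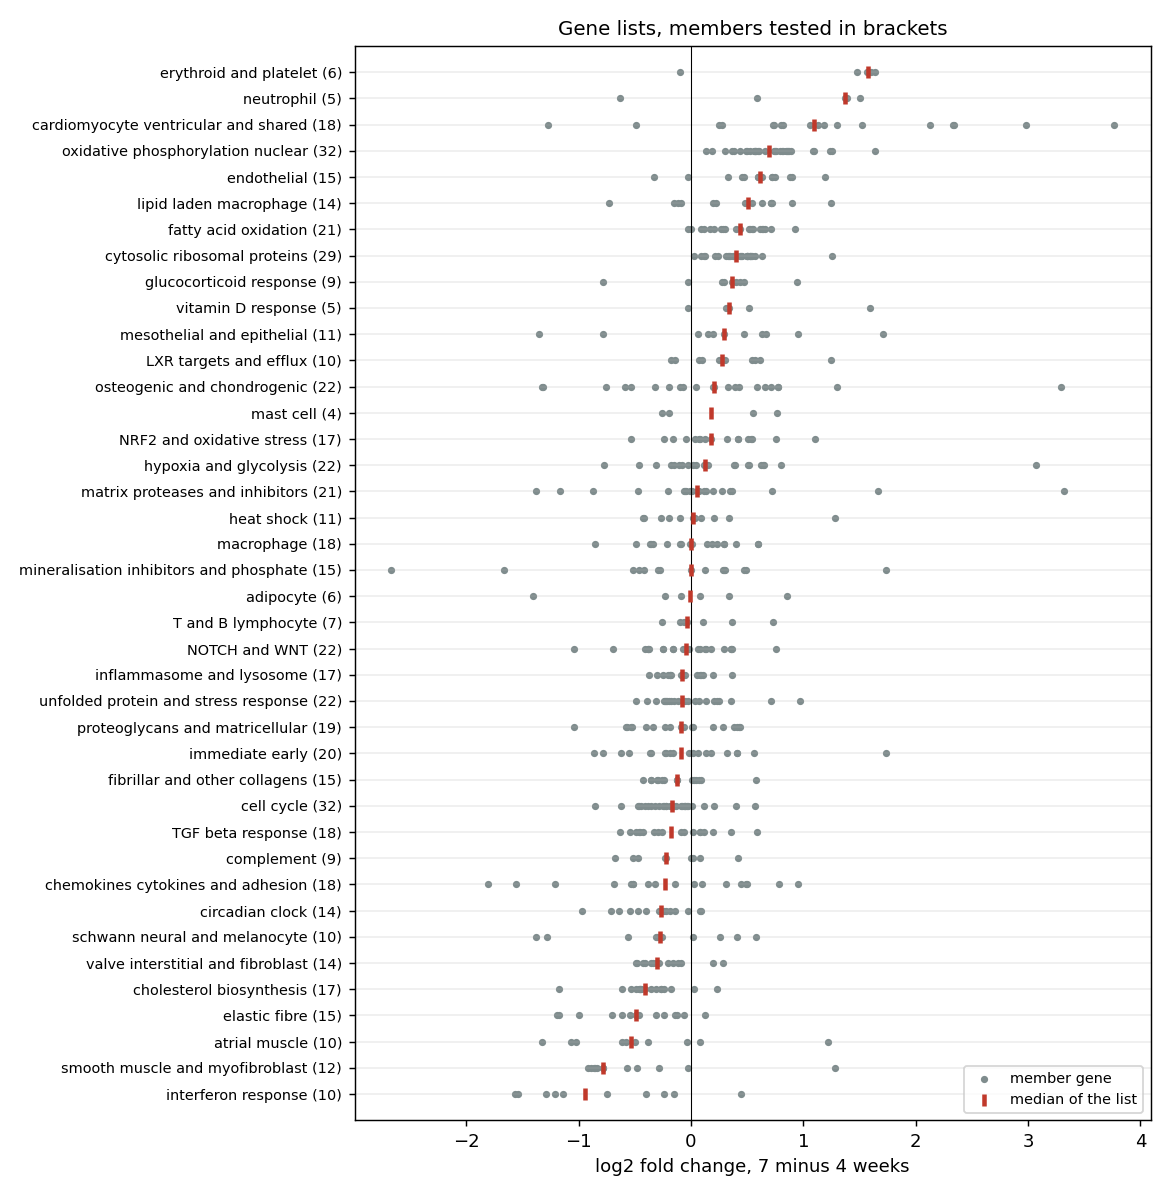
The x axis is the log2 fold change, 7 minus 4 weeks, with 1 grey point per gene and a red bar at the median of each list, ordered by median. The lists run from a median of 1.57 for red cell and platelet genes to -0.94 for interferon-induced genes, and no member passed the threshold by edgeR.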

How the data were processed

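The values were expected counts per gene that the authors made with RSEM 1.3.3 after STAR 2.7.8a, Trim Galore 0.6.6 and FastQC 0.11.9, per the submitters' processing notes, from 100 bp single-end reads of a directional kit, per the labels. Genome build, annotation and the use of strand in counting: not given in the sources used here. Whether reads of overlapping or antisense genes were kept apart is therefore not known. The deposited valve table used leaves out 346 genes that the authors named as myocardial and lists 31000. Of its values, 10.0% were not whole (tolerance 0.001). All were rounded.

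Here edgeR 4.0.16 in R 4.3.3 was used: filterByExpr by group (minimum count 10, minimum total 15), TMM, 1 quasi-likelihood fit of the 16 valve libraries, two-sided F tests of 7 minus 4 weeks, Benjamini-Hochberg adjustment over the 15627 genes kept and a cutoff of 0.05. CPM are counts over the library total. The procedure was tested on simulated data, with changes placed in genes of higher counts. It found 34% of genes set at a log2 fold change of 1 and 46% of those set at -1. At 2 and -2 it found 84% and 92%. A gene not called here can therefore still differ. DESeq2 1.42.0 and the other settings are alternatives. Replicates are separate animals by the animal numbers in the names. No 2 libraries were duplicates (chi-square per degree of freedom at least 41.0).

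The samples, the gene lists and the rule for naming genes were chosen with earlier results of these data known. The rule took the 12 largest called changes per direction (mean of at least 5 CPM, no overlap), filled with the smallest p where fewer passed, the 3 members of smallest p in each list, and a fixed panel. DES, FBLN1, FLT1, LOX and the EEF1B2 row were added after their values were seen. List entries numbered 728, of which 657 were found, 31 through the RefSeq gene table (mOryCun1.1). A few genes covered by the naming rule are not reported here.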

Additional observations from a re-analysis of the deposited data

Results flagged for a closer look

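A sample far from the other 3 of its group by Dixon's test was found in 5 of 108 groups of 4 examined (49 genes and 5 library measures at each time). Chance alone flags about 1 in 20 groups. All 5 were highest values at 4 weeks. In replicate 1, NPPA was at 3337 CPM (102 to 557 CPM in the other 3) and atrial muscle genes took 0.788% of counts (0.0359 to 0.157% in the other 3). In replicate 3, MMP9 was at 147.5 CPM (5.51 to 20.7 CPM in the others) and TNFRSF11B at 83.0 CPM (47.4 to 51.5 CPM in the others). In replicate 2, LOC100357892 was at 76.1 CPM (54.5 to 56.9 CPM in the others), still under the lowest 7-week library.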

How the results depend on the processing

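All 17 called genes kept their direction in every alternative that gave them a value, with log2 fold changes from 1.13 to 8.54. They all passed under RLE normalization, DESeq2, the atrial score as a covariate and without 7-week replicate 1. The count of calls, 17 higher and 0 lower, was 195 with DESeq2 (127 higher, 68 lower; 9 of the lower LOC-numbered), 2 in a fit of the 8 libraries alone (2 higher; 1191 genes had an unadjusted p below 0.05), and 0 under the RN18S share as a covariate (0 higher). It was 0 higher in a fit of genes with a symbol only, an alternative chosen after seeing the data (smallest adjusted p 0.215). Lower calls were 2 with no filter on low counts and 1 with the atrial score. Leaving out 1 library gave 4 to 54 calls, 4 to 38 higher and 0 to 16 lower. Other alternatives (RLE, no filter, the table with myocardial genes, either muscle score) gave 15 to 21 calls.

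With the replicate number as a block in the 8 libraries the count was 2, both higher, and 1 was among the 17. Same-numbered libraries share only a number: their deviations correlated at -0.433, 0.0578, -0.039 and -0.15, so no pairing was used.

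Reversed log2 fold changes, none of them in a called gene, were found with the RN18S covariate for CCNE2 (0.17), BMP10 (-2.07), COL1A1 (0.018), ELN (0.040), TNFRSF11B (0.093) and NPPA (-2.04), and with the heart muscle score for PNPLA2 (-0.014), MMP9 (0.38) and NPPA (-0.083). Leaving out 1 library reversed 9 genes, whose ranges over the 8 such fits were -1.11 to 3.32 for BMP10, -0.094 to 0.71 for C7, -3.58 to 1.13 for NEFL, -0.18 to 1.12 for MS4A2, -1.54 to 0.53 for MMP9, -0.098 to 1.03 for IL1B, -0.044 to 0.70 for ALPL, -0.095 to 0.46 for TREM2 and -0.38 to 2.14 for NPPA. The causes were not tested. Differences in the 4 shares of counts kept their sign and side of the threshold on the table with myocardial genes kept.

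Depth limits genes of few counts: 5 of the 17 averaged under 5 CPM, and TNFSF11, KL and BGLAP were at a few CPM or less.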
